A study of Mus musculus with 15 samples.

Results

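The genes described here code for the receptors that bring target proteins to cullin ubiquitin ligases, other than those of the ASB family. They were taken from the raw count table by symbol: Fbxl, Fbxo, Fbxw, Klhl, Kctd, Btbd or Dcaf followed by a number, with a summed raw count of at least 150 over all libraries. They were thus chosen by name and by total abundance, so their presence in these cells is a description and no finding. The pattern matched 161 of 56748 genes, of which 115 passed the count minimum, 46 were below it and, among those, 22 had no count at all. The choice rested on symbols, so it holds genes for which a ligase role is not established and leaves out receptors with other names, such as Skp2, Btrc and Keap1. Just outside the minimum were Btbd17, Klhl10 and Klhl35, with 63, 125 and 147 summed counts. Just inside it were Klhl32, Klhl30 and Fbxl22, with 167, 168 and 168 summed counts.

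A cullin ligase is a modular enzyme in which a cullin scaffold binds a RING protein at one end and, through an adaptor, an exchangeable substrate receptor at the other. F-box proteins bind CUL1 through SKP1, many but not all BTB-domain proteins of the Klhl, Kctd and Btbd families bind CUL3 directly, and DCAF proteins bind CUL4 through DDB1. Attachment of NEDD8 switches the cullin on, the COP9 signalosome removes NEDD8, and in T cells such ligases control the turnover of signalling proteins, cell cycle regulators and surface receptors.

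The 15 RNA libraries were made from mouse Th2 cells, the T helper cells that make type 2 cytokines, which had been differentiated in culture from naive CD4+ cells of female spleens. The study asked what loss of Asb2, itself a substrate receptor of a cullin 5 ligase, does to gene expression with and without renewed stimulation. The groups were stimulated cKO cells (VEC-Cre;Asb2fl/fl, 4 libraries), non-stimulated cKO cells (VEC-Cre;Asb2fl/fl, 3 libraries), stimulated control cells (Asb2fl/fl, 5 libraries) and non-stimulated control cells (Asb2fl/fl, 3 libraries). All animals carried the floxed Asb2 alleles, and the Cre is driven by the promoter of VE-cadherin, a gene of endothelial cells and of the endothelium from which blood cells arise. Every culture was first activated for 3 days on a coat of anti-CD3ε (5 µg/ml) in medium with anti-CD28 (1 µg/ml), anti-IFNγ (10 µg/ml), IL-2 (10 ng/ml) and IL-4 (40 ng/ml), then expanded for 3 days in IL-2 and IL-4, each at 20 ng/ml. Stimulated cells were put back on anti-CD3ε, coated at 3 µg/ml, together with anti-CD28, in solution at 2 µg/ml, for 24 h starting on day 5. The age of the mice and the number of mice per library are not given in the labels, so the p-values speak to the spread among these libraries alone, which may be technical.

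Values per library are CPM, estimated counts scaled by library size, with n = 4, 3, 5 and 3 libraries in the order of the groups above. Libraries held 17.1 to 24.2 M estimated counts, of which the 115 genes took 0.287% to 0.349%. Asb2 was at 9.49 ± 0.115 CPM in stimulated cKO cells, 19.2 ± 5.62 CPM in non-stimulated cKO cells, 33.5 ± 2.72 CPM in stimulated control cells and 36.7 ± 12.2 CPM in non-stimulated control cells (mean ± SD). Genotype lowered Asb2 past the test in stimulated cells (log2 fold change -1.82 ± 0.18, SE, edgeR adjusted p = 0.000337) and not in non-stimulated cells (-0.94 ± 0.21, edgeR adjusted p = 1). The summed level of 5 Th2 markers was 1834 to 2156 CPM in stimulated and 2362 to 2719 CPM in non-stimulated cKO libraries. In control cells it was 1733 to 1993 CPM in stimulated and 2498 to 2701 CPM in non-stimulated libraries. The 5 B cell markers summed to 1.03 to 6.97 CPM, with stimulated and non-stimulated control libraries overlapping. In cKO cells they summed to 1.03 to 2.85 CPM in stimulated and 3.17 to 5.35 CPM in non-stimulated libraries, without overlap. Markers of macrophages and dendritic cells summed to 3.14 to 6.81 CPM in stimulated libraries and 14.2 to 25.4 CPM in non-stimulated libraries, with Lyz2 at 0 in every library. The 3 endothelial markers summed to 44.4 to 77.2 CPM in stimulated and 165 to 197 CPM in non-stimulated libraries, nearly all of it Pecam1, with Cdh5 at 0 in every stimulated library. The 2 NK cell markers summed to 0.243 to 2.03 CPM in stimulated and 3.05 to 18.1 CPM in non-stimulated libraries. Cytotoxic T cell markers (Cd8a and Cd8b1) summed to 5.83 to 19.3 CPM in stimulated and 10.6 to 18.4 CPM in non-stimulated cKO libraries. In control cells these were at 8.25 to 28.8 CPM in stimulated and 7.39 to 27.8 CPM in non-stimulated libraries. The Th2, macrophage and dendritic, endothelial and NK cell sums were lower with stimulation in both genotypes, and the B cell sum in cKO cells. Single genes carried most of this. The Th2 fall lay mainly in Il4ra (382 to 519 CPM in stimulated, 826 to 1021 CPM in non-stimulated libraries) and Cd3e. For Cd4 and Gata3 the stimulated and non-stimulated libraries overlapped in both genotypes. The macrophage and dendritic fall lay in Adgre1 and Itgax, whereas Cd68 overlapped, and the NK cell sum was nearly all Klrb1c. The part of these shifts in the results below was not tested. In bulk RNA, fewer cells of a type and less RNA per cell cannot be told apart. Stimulated cKO replicate 3 stood apart with 9.43% mitochondrial counts, against 4.36% to 6.24% in the other libraries.

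Levels of the 115 genes spanned a wide range on the length-scaled TPM scale, with mean levels over all libraries from 0.146 to 104 TPM and a median of 7.71 TPM. Above 10 TPM were 46 genes, and under 1 TPM were 17. Btbd1, whose protein binds topoisomerase 1, was the most abundant at 104 TPM. It was followed by Fbxo11, known for targeting BCL6 in B cells, at 48.8 TPM, Dcaf8 at 43.7 TPM, and Fbxo5, the inhibitor of the anaphase-promoting complex also called Emi1, at 43.2 TPM. The least abundant were Fbxl22, Klhl30, Btbd3 and Klhl32, at 0.146, 0.174, 0.188 and 0.214 TPM. Summed over the 115 genes, the level was 1251 ± 239 TPM in stimulated cKO cells, 1321 ± 14.9 TPM in non-stimulated cKO cells, 1292 ± 133 TPM in stimulated control cells and 1202 ± 49.1 TPM in non-stimulated control cells. The ranges of stimulated and non-stimulated libraries overlapped in both genotypes.

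Stimulation changed the RNA of about as many receptor genes as of genes in general. In cKO cells, 25 of the 115 genes were called higher and 32 lower at an edgeR adjusted p under 0.05, which is 49.6%, against 53.8% called among all 15619 genes tested. In control cells, 27 were called higher and 30 lower, again 49.6%, against 50.6% of all genes tested. The median log2 fold change of the 115 genes was -0.10 in cKO cells, where that of all genes was -0.01, and it was -0.04 in control cells, where that of all genes was 0.00 and where the TPM scale with a pseudocount of 0.1 turned the sign, to 0.09. With 1 library left out, that median ran from -0.06 (without non-stimulated control replicate 1) to 0.00 (without stimulated control replicate 3). The cKO median was -0.05 without stimulated cKO replicate 2, -0.06 without stimulated cKO replicate 3, -0.07 without non-stimulated cKO replicate 3 and -0.18 on the TPM scale. On that scale, which put the median of all genes at -0.09 in cKO and at 0.14 in control cells, the calls were 10 higher and 24 lower in cKO cells and 20 higher and 11 lower in control cells. Without stimulated cKO replicate 3, the calls in cKO cells were 27 higher and 28 lower.

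Changes of at least 2-fold were called for 7 higher and 8 lower of the 115 genes in cKO cells, against 20.3% of all genes tested (8.49% higher and 11.8% lower). In control cells they were called for 4 higher and 8 lower of the 115 genes, against 17.9% of all genes tested (7.82% higher and 10.1% lower). Large changes were thus rarer among the 115 genes. Their median absolute log2 fold change was 0.31 in cKO and 0.28 in control cells, against 0.48 and 0.43 for all genes tested. The part of the count minimum in this, which other genes tested did not have to pass, was not tested. The same direction was called in both genotypes for 22 genes that rose and 27 that fell, against 21.9% and 21.6% of all genes tested, and no gene was called in opposite directions. A further 8 genes were called in cKO cells and not in control cells, and another 8 in control cells and not in cKO cells, which is no test of a difference between them. Across the 115 genes, 100 had a log2 fold change of the same sign in both genotypes, which used separate libraries. The values had a Pearson r of 0.905 and a Spearman rho of 0.883 across the 114 genes without Klhl30, as a description over genes, which are not independent replicates. All 115 genes passed the filter on low counts, but 8 of them averaged under 10 counts per library in at least 1 group. Without those 8, the calls were 23 higher and 29 lower in cKO cells and 24 higher and 27 lower in control cells.

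**Figure D1:**
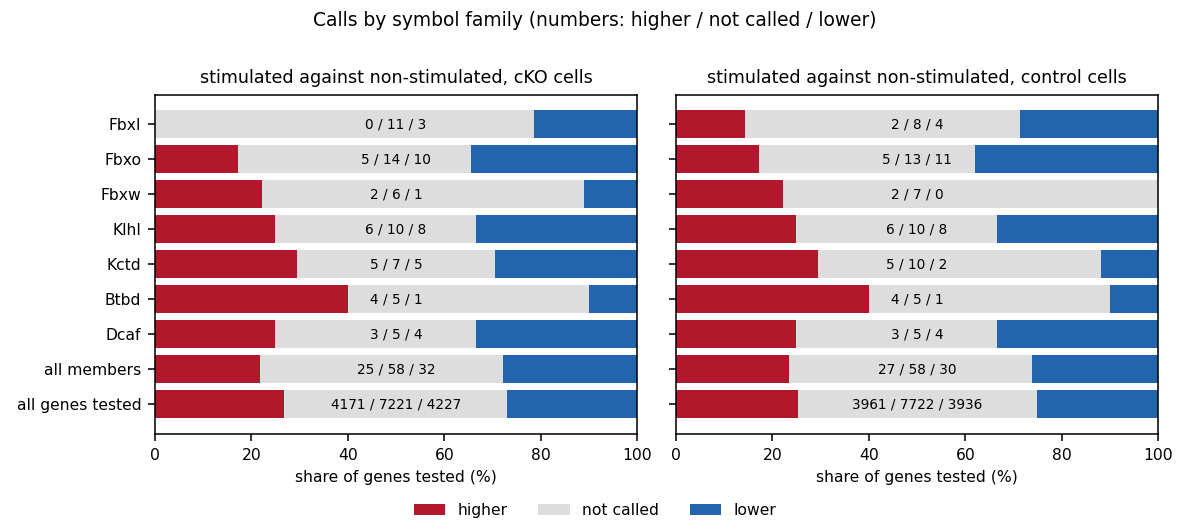
Shares of genes tested (x axis, percent) that were called higher, not called or called lower in stimulated against non-stimulated cells, for each symbol family, for all 115 genes and for all genes tested, in cKO cells (left) and control cells (right). The printed numbers are higher, not called and lower; the 115 genes hold 25 higher and 32 lower in cKO cells, and 27 higher and 30 lower in control cells.

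**Figure D2:**
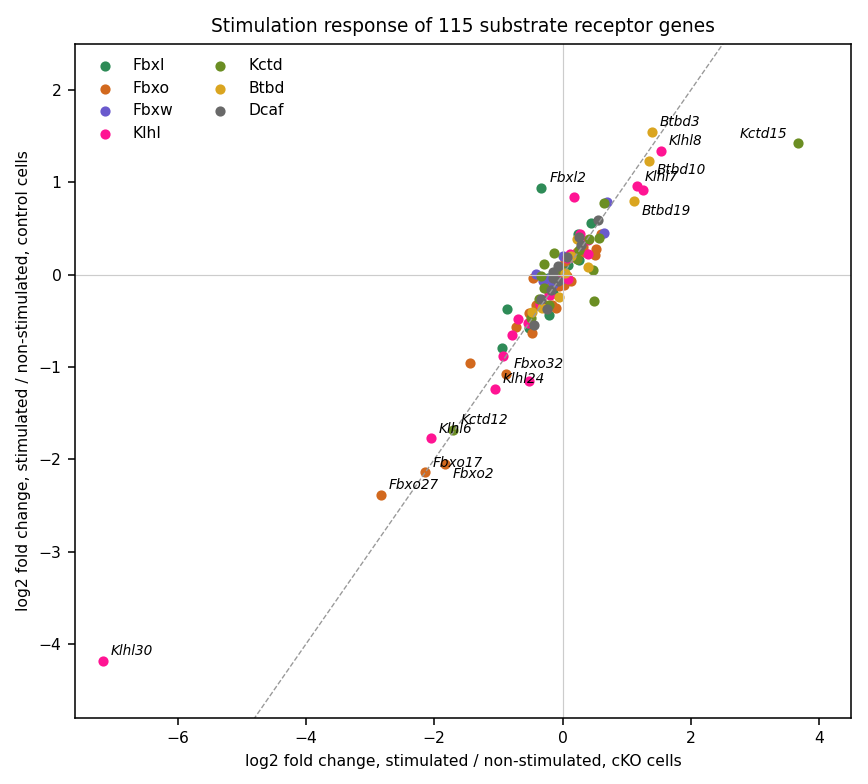
Fitted log2 fold change of each of the 115 genes, stimulated over non-stimulated, in cKO cells (x axis) against control cells (y axis), colored by family, with a dashed line at equal values. Klhl30 has 0 counts in every stimulated cKO library, so its x value depends on the prior count of the fit and is no measure of size; most genes lie near the line, and Kctd15 lies at 3.66 in cKO and 1.42 in control cells.

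The F-box genes, which code for CUL1 receptors, were called in both directions, as were genes in general. Of all genes tested, 26.7% were called higher and 27.1% lower in cKO cells, and 25.4% and 25.2% in control cells. In either direction these are 53.8% and 50.6%. The shares in cKO and control cells were 51.7% and 55.2% for Fbxo, 21.4% and 42.9% for Fbxl, and 33.3% and 22.2% for Fbxw genes. Of 29 Fbxo genes, 5 were called higher and 10 lower in cKO cells and 5 higher and 11 lower in control cells, with 2 higher and 9 lower in cKO and 2 higher and 4 lower in control cells on the TPM scale. Of 14 Fbxl genes, none was called higher by edgeR in cKO cells (0, with 3 lower, and 0 also by DESeq2 and on the TPM scale), and 2 were called higher and 4 lower in control cells. At an unadjusted p under 0.05, 1 Fbxl gene was higher in cKO cells. Of 9 Fbxw genes, 2 were called higher and 1 lower in cKO cells, and 2 higher and 0 lower in control cells, where 0 were lower also at an unadjusted p under 0.05, by DESeq2 and on the TPM scale. Fitted log2 fold changes of the Fbxo genes ran from -2.83 to 0.60 in cKO and from -2.39 to 0.44 in control cells, those of the Fbxl genes from -0.95 to 0.44 and from -0.80 to 0.94, and those of the Fbxw genes from -0.41 to 0.69 and from -0.10 to 0.78.

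The largest falls among the F-box genes were in a small group whose proteins share an FBA domain, through which several of them bind sugar chains on misfolded glycoproteins. This group was singled out after its values were seen, and Fbxo2 and Fbxo44 are outside the rule for named genes. Fbxo17 was at 16.2, 9.88, 9.50 and 7.47 CPM in stimulated cKO libraries, against 48.9, 54.6 and 39.4 CPM in non-stimulated cKO libraries. It was at 10.5, 9.56, 10.6, 9.65 and 8.55 CPM in stimulated control libraries, against 42.7, 48.3 and 38.5 CPM in non-stimulated control libraries. Every stimulated library lay far below every non-stimulated library in both genotypes. Fbxo17 fell by 2.14 ± 0.19 (log2, SE) in cKO cells (edgeR adjusted p = 1.01e-07) and by 2.14 ± 0.18 in control cells (edgeR adjusted p = 4.41e-08).

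Fbxo27 had 0.438, 0.410, 0.393 and 0.699 CPM in stimulated cKO libraries, against 2.90, 3.33 and 4.22 CPM in non-stimulated cKO libraries. It had 0.745, 0.202, 0.450, 1.28 and 0.520 CPM in stimulated control libraries, against 2.89, 3.72 and 3.42 CPM in non-stimulated control libraries. The groups did not overlap, and the stimulated libraries were low. Fbxo27 fell by 2.83 ± 0.38 on the log2 scale in cKO cells and by 2.39 ± 0.34 in control cells (edgeR adjusted p = 6.68e-06 and 1.54e-05). Fbxo2, which binds high-mannose glycans, averaged 0.584 ± 0.152 CPM in stimulated and 2.10 ± 1.05 CPM in non-stimulated cKO cells, and 0.440 ± 0.107 CPM in stimulated and 1.85 ± 0.626 CPM in non-stimulated control cells (mean ± SD). Its log2 fold change was -1.84 ± 0.37 in cKO cells and -2.05 ± 0.36 in control cells, both called. Fbxo44 fell by 0.72 ± 0.15 in cKO cells and by 0.57 ± 0.15 in control cells on the log2 scale, where the control call was lost on the TPM scale.

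Fbxo6, whose protein also binds glycoproteins, was the member of the group that rose. It was at 19.4, 16.8, 16.1 and 16.6 CPM in stimulated cKO libraries, against 12.5, 12.3 and 11.3 CPM in non-stimulated cKO libraries. It was at 18.6, 17.3, 16.6, 15.9 and 17.6 CPM in stimulated control libraries, against 14.2, 12.6 and 15.9 CPM in non-stimulated control libraries. The groups did not overlap, although the lowest stimulated control library was level, as printed, with the highest non-stimulated control library. The log2 fold change was 0.52 ± 0.11 in cKO cells (edgeR adjusted p = 0.000728) and 0.27 ± 0.11 in control cells (edgeR adjusted p = 0.0378), and the control call was kept in 12 of 22 alternative settings (values from 0.20 to 0.42). In RefSeq's gene order, Fbxo6, Fbxo44 and Fbxo2 follow each other with no other protein-coding gene between, as do Fbxo27 and Fbxo17, and none of these genes overlap.

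**Figure D3:**
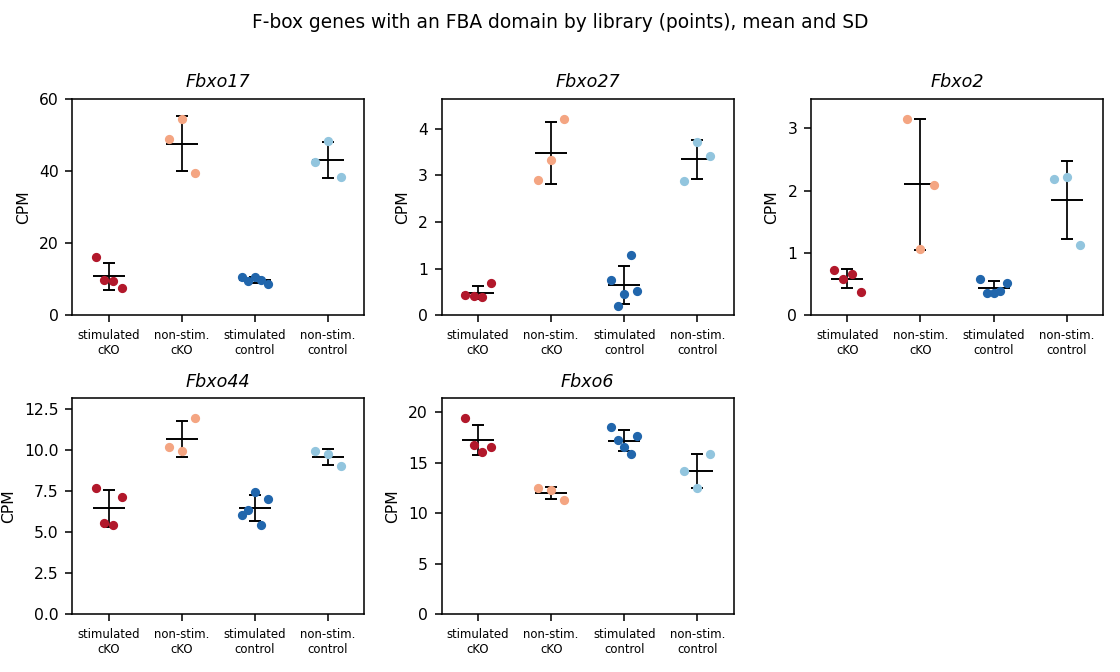
CPM (y axis) of the 5 F-box genes with an FBA domain in each library (points) of the 4 groups, with the group mean and SD. Fbxo17 lies at 7.47 to 16.2 CPM in stimulated cKO cells and 39.4 to 54.6 CPM in non-stimulated cKO cells, whereas Fbxo6 is higher in stimulated cells.

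Other F-box genes with falls in both genotypes included regulators of muscle wasting and the cell cycle. Fbxo32, known as atrogin-1 in muscle and as a target of FOXO factors there, was at 4.23, 4.39, 4.72 and 3.98 CPM in stimulated cKO libraries, against 8.20, 7.81 and 7.94 CPM in non-stimulated cKO libraries. In control cells, it was at 3.4, 4.40, 3.85, 2.79 and 4.16 CPM in stimulated libraries, against 7.44, 9.46 and 6.66 CPM in non-stimulated libraries. The stimulated libraries were all below the non-stimulated ones. Fbxo32 fell by 0.88 ± 0.17 in cKO and 1.07 ± 0.16 in control cells on the log2 scale (edgeR adjusted p = 0.000245 and 2.24e-05).

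Fbxo5 was at 64.3, 69.4, 62.3 and 57.6 CPM in stimulated cKO libraries, against 87.7, 94.2 and 84.2 CPM in non-stimulated cKO libraries. In control cells it was at 60.3, 71.4, 64.0, 60.6 and 53.3 CPM in stimulated libraries, against 104, 96.6 and 88.0 CPM in non-stimulated libraries. No stimulated library reached a non-stimulated one. Fbxo5 fell by 0.48 ± 0.10 in cKO and 0.64 ± 0.09 in control cells (log2, SE; edgeR adjusted p = 0.000505 and 2.09e-05), and the control call was lost on the TPM scale. Fbxl14, known for the turnover of Snail-type transcription factors, fell by 0.52 ± 0.09 and 0.57 ± 0.09, with 56.9 ± 4.90 CPM in stimulated and 81.8 ± 5.36 CPM in non-stimulated cKO cells, and 57.3 ± 5.34 CPM in stimulated and 85.3 ± 4.42 CPM in non-stimulated control cells. Fbxl8 and Fbxl20 fell by 0.95 and 0.51 in cKO cells, and by 0.80 and 0.51 in control cells, where the Fbxl20 call was lost on the TPM scale. Fbxo10, reported to target BCL2 in B cells, was called lower in cKO cells only, with a log2 fold change of -1.45 ± 0.43 (edgeR adjusted p = 0.00926) against -0.95 ± 0.40 in control cells (edgeR adjusted p = 0.0591). The difference between the genotypes was not called, and without non-stimulated cKO replicate 1 the cKO value was -1.19 ± 0.49 with an edgeR adjusted p of 0.0537.

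Rises among the F-box genes stayed under 2-fold and included receptors with known roles in lymphocytes. Fbxw11, one of the β-TrCP proteins that bind phosphorylated IκB and β-catenin, was at 101, 110.2, 105 and 98.7 CPM in stimulated cKO libraries, against 64.2, 69.2 and 65.8 CPM in non-stimulated cKO libraries. It was at 98.7, 105, 96.5, 104 and 104 CPM in stimulated control libraries, against 74.8, 68.8 and 79.5 CPM in non-stimulated control libraries. All stimulated libraries were higher. Fbxw11 rose by 0.65 ± 0.08 in cKO cells and 0.45 ± 0.07 in control cells (log2, SE; edgeR adjusted p = 2.26e-06 and 7e-05). Fbxo11 was at 152, 166, 199.6 and 171 CPM in stimulated and 112, 107 and 121 CPM in non-stimulated cKO libraries, and at 159.7, 157, 152, 181 and 195 CPM in stimulated and 121, 122 and 130.4 CPM in non-stimulated control libraries. Again no groups overlapped within a genotype, and the log2 fold changes were 0.60 ± 0.10 and 0.44 ± 0.10.

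Fbxo38, reported as a receptor for the checkpoint protein PD-1 in T cells, was at 90.5, 95.0, 108 and 104 CPM in stimulated cKO libraries, against 77.2, 83.5 and 79.0 CPM in non-stimulated cKO libraries. It was at 99.6, 102, 93.5, 98.3 and 104 CPM in stimulated control libraries, against 81.9, 75.5 and 85.7 CPM in non-stimulated control libraries. The shift was small but every stimulated library was above every non-stimulated one. Fbxo38 rose by 0.31 ± 0.08 in cKO and 0.30 ± 0.08 in control cells (log2, SE; edgeR adjusted p = 0.00372 and 0.00456), with the cKO call lost on the TPM scale. Fbxw9 rose by 0.69 ± 0.22 in cKO and 0.78 ± 0.22 in control cells, and without non-stimulated cKO replicate 3 its cKO value was 0.63 with an edgeR adjusted p of 0.0567. Fbxo9 was called higher in cKO cells only, at 0.51 ± 0.13 against 0.21 ± 0.12 in control cells, and Fbxw2 lower in cKO cells only, at -0.19 ± 0.08 against -0.03 ± 0.07. In control cells only, Fbxl4 and Fbxl2 were called higher, at 0.44 ± 0.12 and 0.94 ± 0.36, and Fbxo33 lower, at -0.33 ± 0.11. These calls were kept in 20 of 22 alternative settings (values from 0.15 to 0.57) for Fbxo9, in 8 of 22 alternative settings (values from -0.28 to -0.16) for Fbxw2, in 13 of 22 alternative settings (values from 0.31 to 1.25) for Fbxl2 and in 19 of 22 alternative settings (values from -0.39 to -0.19) for Fbxo33, and in all 22 for Fbxl4. None of these 5 genes was called for the difference between the genotypes.

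Several F-box genes with much studied targets were not called in either genotype. Fbxw7, the receptor for cyclin E, MYC and Notch, was at 42.3, 43.5, 46.4 and 52.9 CPM in stimulated cKO libraries, against 52.8, 44.6 and 43.6 CPM in non-stimulated cKO libraries. It was at 49.0, 45.6, 50.6, 47.8 and 46.9 CPM in stimulated control libraries, against 54.7, 46.8 and 47.4 CPM in non-stimulated control libraries. The groups overlapped in both genotypes, with log2 fold changes of -0.02 ± 0.10 and -0.05 ± 0.09. Fbxl5, the iron sensor that targets IRP2, had -0.11 ± 0.08 and -0.07 ± 0.08. Fbxo31, linked to cyclin D1 turnover, had 0.02 ± 0.17 and -0.11 ± 0.16, and Fbxo7, a gene mutated in a form of parkinsonism, had -0.23 ± 0.11 and -0.15 ± 0.11. Fbxl12, Fbxl17, Fbxw5 and Fbxw17 were not called either, with log2 fold changes of -0.13, 0.26, 0.01 and -0.31 in cKO cells and -0.06, 0.16, 0.20 and -0.07 in control cells.

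The Klhl genes, which code for CUL3 receptors with kelch repeats, split between rises and falls. In each genotype 58.3% were called, against 53.8% of all genes tested in cKO and 50.6% in control cells. Of 24 Klhl genes, 6 were called higher and 8 lower in each genotype, with 2 higher and 7 lower in cKO cells and 3 higher and 4 lower in control cells on the TPM scale. Without Klhl30, their fitted log2 fold changes ran from -2.05 to 1.53 in cKO and from -1.77 to 1.34 in control cells. Klhl6, known for its role in germinal centre B cells, was at 12.3, 10.7, 11.3 and 10.9 CPM in stimulated cKO libraries, against 52.3, 39.1 and 49.5 CPM in non-stimulated cKO libraries. It was at 11.2, 12.8, 13.7, 12.5 and 12.4 CPM in stimulated control libraries, against 45.8, 53.0 and 29.8 CPM in non-stimulated control libraries. Every stimulated library was far below every non-stimulated one. Klhl6 fell by 2.05 ± 0.15 in cKO cells and by 1.77 ± 0.14 in control cells (log2, SE; edgeR adjusted p = 1.06e-08 and 2.15e-08).

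Klhl24, whose human gene is mutated in a skin blistering disease and whose protein targets keratin 14, was at 27.9, 31.1, 38.5 and 37.8 CPM in stimulated cKO libraries, against 85.6, 63.6 and 62.2 CPM in non-stimulated cKO libraries. It was at 26.4, 31.2, 27.4, 27.9 and 41.7 CPM in stimulated control libraries, against 75.6, 84.6 and 57.8 CPM in non-stimulated control libraries. The groups did not overlap, and the log2 fold changes were -1.06 ± 0.17 and -1.23 ± 0.16 (edgeR adjusted p = 7e-05 and 8.64e-06). In RefSeq's gene order Klhl6 and Klhl24 are neighbours with no protein-coding gene between them, and they do not overlap. Klhl25, reported to target the lipid synthesis enzyme ACLY, was at 12.6, 11.0, 9.83 and 9.19 CPM in stimulated cKO libraries, against 19.5, 17.5 and 24.0 CPM in non-stimulated cKO libraries. It averaged 10.7 ± 0.931 CPM in stimulated and 19.6 ± 0.791 CPM in non-stimulated control cells and fell by 0.93 ± 0.13 in cKO and 0.88 ± 0.12 in control cells (edgeR adjusted p = 1.2e-05 and 1.3e-05).

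Klhl30 had 0 counts in all 4 stimulated cKO libraries, against 56 summed counts in the 3 non-stimulated cKO libraries. With a floor of 3 counts over the stimulated group, it was at least 23.7-fold lower in stimulated than in non-stimulated cKO cells. In control cells it had 8 summed counts in 5 stimulated and 104 in 3 non-stimulated libraries. Klhl30 is among the least abundant of the 115 genes, and floors cover counting error only. Klhl22, also reported as a receptor for PD-1, had log2 fold changes of -0.35 ± 0.13 in cKO and -0.31 ± 0.13 in control cells (edgeR adjusted p = 0.0332 and 0.0498), where its calls were kept in 12 of 22 alternative settings (values from -0.46 to -0.20) and in 4 of 22 alternative settings (values from -0.37 to -0.08).

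Klhl8 and Klhl7 were among the Klhl genes that rose. Klhl8 was at 3.65, 4.88, 4.33 and 4.14 CPM in stimulated cKO libraries, against 1.58, 1.43 and 1.41 CPM in non-stimulated cKO libraries. It was at 3.88, 4.35, 2.75, 3.79 and 4.28 CPM in stimulated control libraries, against 1.55, 1.19 and 1.73 CPM in non-stimulated control libraries. All stimulated libraries were higher, with log2 fold changes of 1.53 ± 0.21 and 1.34 ± 0.20 (edgeR adjusted p = 1.03e-05 and 2.92e-05). Klhl7, whose human gene is mutated in retinitis pigmentosa, was at 13.5, 17.1, 16.6 and 19.8 CPM in stimulated cKO libraries, against 8.35, 7.55 and 6.62 CPM in non-stimulated cKO libraries. It was at 15.4, 16.8, 15.3, 15.1 and 15.4 CPM in stimulated control libraries, against 8.88, 6.98 and 8.22 CPM in non-stimulated control libraries. The groups did not overlap, and Klhl7 rose by 1.16 ± 0.14 in cKO and 0.96 ± 0.13 in control cells (edgeR adjusted p = 1.95e-06 and 1.06e-05). Klhl3, a receptor for WNK kinases named here after its values were seen, rose by 1.26 ± 0.35 and 0.92 ± 0.34, with the cKO call lost on the TPM scale and the control call kept in 16 of 22 alternative settings (values from 0.19 to 1.21). Klhl23 was called higher in control cells only, at 0.84 ± 0.21 against 0.18 ± 0.20 in cKO cells, a call lost on the TPM scale.

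**Figure D4:**
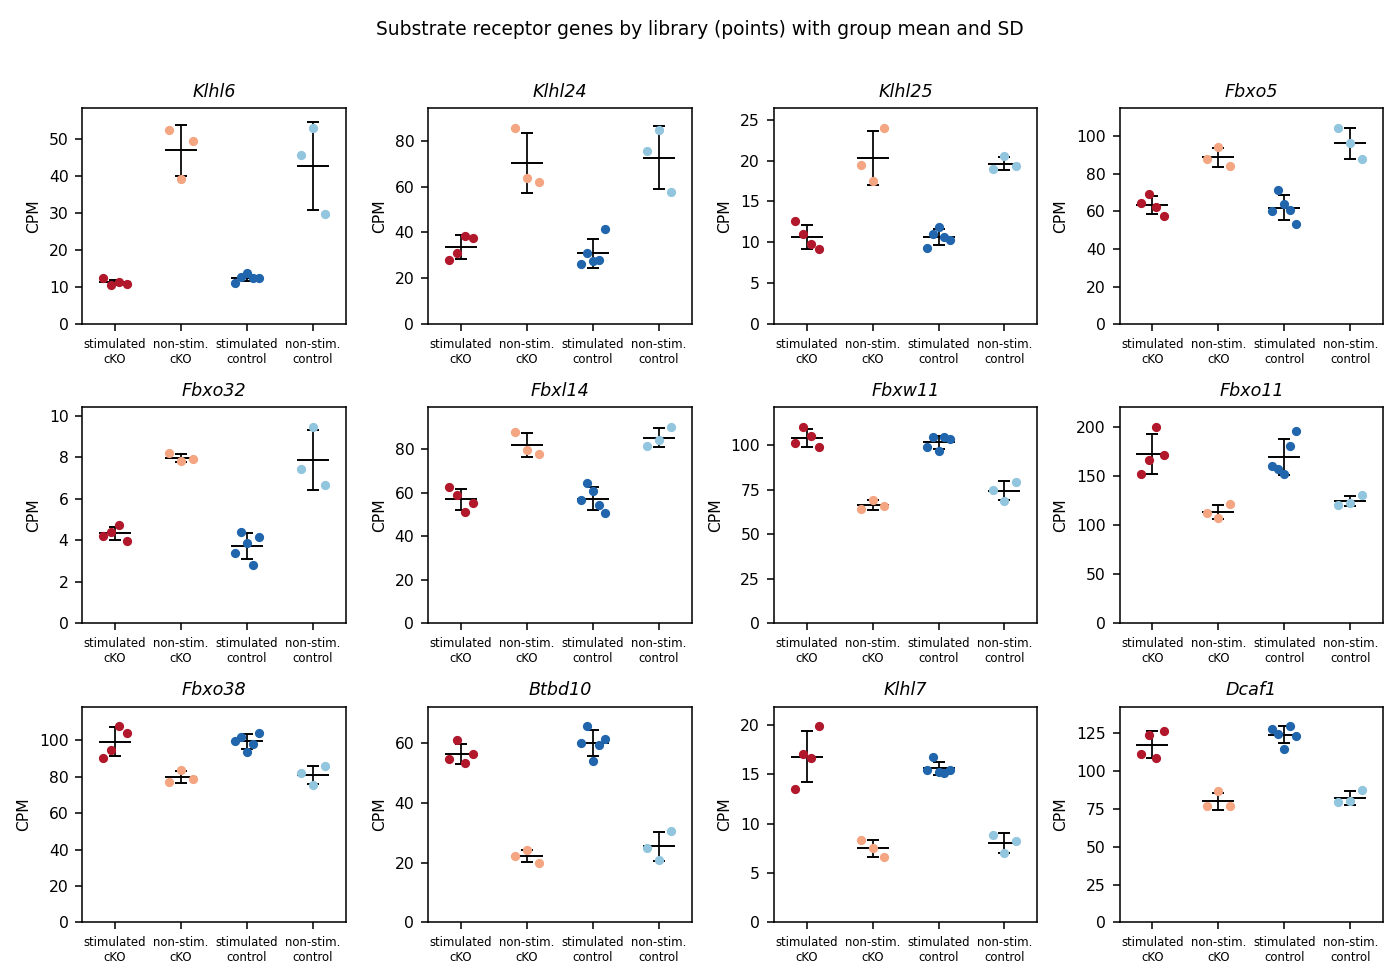
CPM (y axis, starting at 0) of 12 receptor genes in each library (points) of the 4 groups, with the group mean and SD. Klhl6, Klhl24, Klhl25, Fbxo5, Fbxo32 and Fbxl14 are lower in stimulated cells and Fbxw11, Fbxo11, Fbxo38, Btbd10, Klhl7 and Dcaf1 are higher, in cKO and in control cells; the Fbxo5 control call and the Fbxo38 and Dcaf1 cKO calls were lost on the TPM scale.

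The Btbd and Kctd genes were called in both directions. In each genotype 50% of the Btbd genes were called, against 53.8% of all genes tested in cKO and 50.6% in control cells. Of 10 Btbd genes, 4 were called higher and 1 lower in each genotype, with 3 and 1 in cKO and 4 and 0 in control cells on the TPM scale, and log2 fold changes ran from -0.48 to 1.39 in cKO and from -0.40 to 1.55 in control cells. The upper end of both ranges is Btbd3, named after its values were seen, which averaged under 10 counts per library in at least 1 group and whose calls were kept in 18 of 22 alternative settings (values from 0.19 to 1.67) in cKO and in 20 of 22 alternative settings (values from 0.21 to 1.73) in control cells. Btbd10, the Btbd gene with the smallest p in both genotypes, was at 54.7, 60.9, 53.3 and 56.3 CPM in stimulated cKO libraries, against 22.1, 24.1 and 20.0 CPM in non-stimulated cKO libraries. It was at 60.1, 65.6, 53.9, 59.3 and 61.2 CPM in stimulated control libraries, against 25.0, 20.9 and 30.5 CPM in non-stimulated control libraries. Stimulated libraries were all above the non-stimulated ones, and Btbd10 rose by 1.35 ± 0.12 and 1.23 ± 0.11 (log2, SE; edgeR adjusted p = 5.4e-08 and 8.68e-08). Btbd19 rose by 1.12 ± 0.13 in cKO and 0.80 ± 0.13 in control cells. Btbd1 was called higher in cKO cells (0.40 ± 0.12) and not in control cells (0.09 ± 0.12). Stimulated cKO replicate 3 had the highest Btbd1 level, and without it the cKO value was 0.26 ± 0.09 with an edgeR adjusted p of 0.0276. Btbd7 fell by 0.48 ± 0.12 in cKO and 0.40 ± 0.12 in control cells, where the call was lost on the TPM scale. Btbd9 was called higher in control cells, at 0.38 ± 0.10, and not in cKO cells, at 0.23 ± 0.10, where it was also uncalled in 20 of 22 alternative settings (values from 0.17 to 0.30), and Btbd2, the relative of Btbd1, was not called, at -0.32 ± 0.19 and -0.36 ± 0.18.

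Of 17 Kctd genes, 5 were called higher and 5 lower in cKO cells and 5 higher and 2 lower in control cells, with 2 and 1 in cKO and 4 and 1 in control cells on the TPM scale. The share called was 58.8% in cKO and 41.2% in control cells, against 53.8% and 50.6% of all genes tested. Log2 fold changes of the Kctd genes ran from -1.71 to 3.66 in cKO and from -1.69 to 1.42 in control cells. Kctd12, known as an auxiliary subunit of the GABA-B receptor and named here after its values were seen, was at 11.0, 16.9, 22.7 and 7.80 CPM in stimulated cKO libraries, against 26.8, 58.4 and 57.4 CPM in non-stimulated cKO libraries. It was at 7.18, 18.2, 11.6, 21.1 and 20.7 CPM in stimulated control libraries, against 40.9, 49.98 and 61.0 CPM in non-stimulated control libraries. The groups were apart, with a wide spread among libraries, and Kctd12 fell by 1.71 ± 0.42 and 1.69 ± 0.39 (edgeR adjusted p = 0.00406 and 0.00304). Kctd20 fell by 0.48 ± 0.09 and 0.47 ± 0.08, calls that were lost on the TPM scale in both genotypes. Kctd13, which with Tnfaip1 belongs to the receptors for the GTPase RhoA, rose by 0.64 ± 0.16 in cKO and 0.77 ± 0.15 in control cells. The cKO call of Kctd13 and that of Kctd5 were lost on the TPM scale. Kctd5, known for the turnover of G protein βγ subunits, rose by 0.58 ± 0.11 and 0.39 ± 0.10, and Kctd9 by 0.42 ± 0.09 and 0.38 ± 0.09. Kctd10 was not called, at -0.01 ± 0.10 and 0.04 ± 0.10.

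Kctd15, an inhibitor of neural crest formation in the embryo, had the largest fitted rise in cKO cells. It was at 1.60, 1.48, 1.70 and 1.40 CPM in stimulated cKO libraries, against 0.102, 0.158 and 0.0907 CPM in non-stimulated cKO libraries. It was at 2.55, 1.57, 1.40, 0.669 and 1.27 CPM in stimulated control libraries, against 0.589, 0.465 and 0.606 CPM in non-stimulated control libraries. The groups did not overlap in either genotype, but the levels rest on 121, 7, 141 and 34 summed counts in stimulated cKO, non-stimulated cKO, stimulated control and non-stimulated control cells. Kctd15 rose by 3.66 ± 0.47 in cKO and 1.42 ± 0.36 in control cells (log2, SE; edgeR adjusted p = 4.56e-06 and 0.00289). Kctd18 was called lower in cKO cells only, at -0.28 ± 0.11 against 0.11 ± 0.10 in control cells, and the call was kept in 12 of 22 alternative settings (values from -0.32 to -0.22).

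The Dcaf genes, which code for CUL4 receptors, changed little in size. In each genotype 58.3% were called, against 53.8% of all genes tested in cKO and 50.6% in control cells. Of 12 Dcaf genes, 3 were called higher and 4 lower in each genotype, with 0 higher and 2 lower in cKO and 3 higher and 0 lower in control cells on the TPM scale, and their log2 fold changes ran from -0.45 to 0.55 in cKO and from -0.54 to 0.59 in control cells. DESeq2 gave the same numbers as edgeR, and 3 were higher and 4 lower at an unadjusted p under 0.05 in each genotype. Dcaf1, the protein bound by the Vpr accessory protein of HIV, was at 111, 124, 109 and 127 CPM in stimulated cKO libraries, against 76.8, 86.7 and 76.9 CPM in non-stimulated cKO libraries. It was at 128, 125, 115, 129.8 and 123 CPM in stimulated control libraries, against 79.5, 80.3 and 87.6 CPM in non-stimulated control libraries. All stimulated libraries were higher, and Dcaf1 rose by 0.55 ± 0.08 and 0.59 ± 0.08 (edgeR adjusted p = 2.95e-05 and 1.04e-05), with the cKO call lost on the TPM scale. Dcaf15, the receptor used by the drug indisulam to degrade RBM39, fell by 0.45 ± 0.13 in cKO and 0.54 ± 0.12 in control cells, with the control call lost on the TPM scale. Dcaf13, a factor of ribosomal RNA processing, rose by 0.25 ± 0.09 and 0.41 ± 0.09, and its cKO call was kept in 14 of 22 alternative settings (values from 0.20 to 0.32). Dcaf10 rose by 0.29 ± 0.10 and 0.32 ± 0.10, Dcaf7 fell by 0.33 ± 0.10 and 0.26 ± 0.09, and Dcaf5 fell by 0.25 ± 0.09 and 0.37 ± 0.09. In cKO cells these calls were kept in 19 of 22 alternative settings (values from 0.23 to 0.32), in 19 of 22 alternative settings (values from -0.44 to -0.25) and in 15 of 22 alternative settings (values from -0.52 to -0.21), and in control cells in 20 of 22 alternative settings (values from 0.26 to 0.60), in 13 of 22 alternative settings (values from -0.29 to -0.11) and in 20 of 22 alternative settings (values from -0.46 to -0.27). The groups overlapped for Dcaf5, Dcaf7 and Dcaf13 in cKO cells and for Dcaf10 in control cells.

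Promoter sequence was at hand for 92 of the 115 genes in RefSeq's mouse table (build GRCm38.p6), and the 250 bases before each start were searched on both strands for 4 motifs chosen after the values were seen. The motifs were the E-box CACGTG, the AP-1 site TGACTCA, the FOXO site TGTTTAC and the cyclic AMP response element TGACGTCA, none of which holds another. TGACGTCA stood in 2 of 17 promoters of genes that rose in both genotypes (11.8%) and in 0 of 22 of genes that fell in both. Over all 92 promoters it stood in the same 2 (2.17%), against 1.77% of 27025 genes with a promoter, and enrichment was not tested. CACGTG stood in 0 of 17 and 2 of 22 such promoters (6.86% of all genes), TGACTCA in 1 of 17 and 1 of 22 (5.16%), and TGTTTAC in 1 of 17 and 1 of 22 (3.54%). The first pair of windows shown holds the promoters with TGACGTCA, those of Klhl12, a receptor for the coat protein SEC31, and of Fbxw9. The second pair belongs to the strong riser Btbd10 and to Klhl6, in which none of the 4 motifs was found. Capitals mark the motif, and each window runs 5′ to 3′ on the strand of the gene.
Klhl12 (chr1:134455281-134455530, plus strand): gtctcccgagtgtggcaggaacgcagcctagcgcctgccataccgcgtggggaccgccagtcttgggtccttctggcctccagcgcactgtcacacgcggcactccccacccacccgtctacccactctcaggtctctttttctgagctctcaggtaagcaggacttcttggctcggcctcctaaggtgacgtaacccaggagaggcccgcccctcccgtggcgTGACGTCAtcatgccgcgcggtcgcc
Fbxw9 (chr8:85059869-85060118, plus strand): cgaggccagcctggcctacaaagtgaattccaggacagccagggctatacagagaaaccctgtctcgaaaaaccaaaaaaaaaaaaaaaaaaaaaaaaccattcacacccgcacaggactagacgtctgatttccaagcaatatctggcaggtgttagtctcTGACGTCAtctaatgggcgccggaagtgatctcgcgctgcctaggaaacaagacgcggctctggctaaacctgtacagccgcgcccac
Btbd10 (chr7:113369340-113369589, minus strand): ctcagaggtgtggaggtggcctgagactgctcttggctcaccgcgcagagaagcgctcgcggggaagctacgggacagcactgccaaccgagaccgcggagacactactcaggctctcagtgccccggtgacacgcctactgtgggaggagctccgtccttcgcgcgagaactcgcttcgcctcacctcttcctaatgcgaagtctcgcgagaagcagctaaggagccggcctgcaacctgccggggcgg
Klhl6 (chr16:19983050-19983299, minus strand): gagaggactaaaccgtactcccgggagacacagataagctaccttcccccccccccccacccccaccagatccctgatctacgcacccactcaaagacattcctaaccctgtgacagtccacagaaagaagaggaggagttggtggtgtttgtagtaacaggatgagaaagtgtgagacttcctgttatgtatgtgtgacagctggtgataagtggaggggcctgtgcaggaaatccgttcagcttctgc
Klhl12, named after its promoter was seen, rose by 0.28 ± 0.10 in cKO and 0.44 ± 0.09 in control cells, and its cKO call was kept in 13 of 22 alternative settings (values from 0.13 to 0.34).

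Among the other parts of the ligase, more genes were called higher than lower. Of 45 listed genes for cullins, RING proteins, adaptors, the NEDD8 pathway and the COP9 signalosome, 44 were tested. Of these, 22 were called higher and 2 lower in cKO cells, where 26.7% and 27.1% of all genes were, and 19 higher and 4 lower in control cells, where 25.4% and 25.2% were. The median log2 fold change of the list was 0.31 in cKO and 0.21 in control cells, and on the TPM scale the calls were 16 higher and 1 lower and 20 higher and 0 lower. Uba3, a subunit of the enzyme that activates NEDD8, was at 145, 165, 170.2 and 151 CPM in stimulated cKO libraries, against 68.4, 71.9 and 72.8 CPM in non-stimulated cKO libraries. It rose by 1.15 ± 0.09 in cKO and 1.03 ± 0.08 in control cells, and Nae1, the other subunit, rose by 0.85 ± 0.12 and 0.70 ± 0.11.

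Cul2 rose by 1.27 ± 0.15 in cKO and 1.09 ± 0.14 in control cells. Cul1, the scaffold of the F-box receptors, was not called, at -0.01 ± 0.08 and -0.09 ± 0.07, nor was their adaptor Skp1, at -0.02 ± 0.12 and -0.05 ± 0.11. Cul3, the scaffold of many BTB-domain receptors, had -0.18 ± 0.09 in cKO and -0.26 ± 0.09 in control cells and was called lower in control cells only. Ddb1, the adaptor of the Dcaf receptors, rose by 0.65 ± 0.10 and 0.50 ± 0.10. Of 10 genes for the COP9 signalosome, 7 were called higher and 1 lower in cKO cells, where 26.7% and 27.1% of all genes were. In control cells 8 were called higher and 1 lower, where 25.4% and 25.2% of all genes were. The calls on the TPM scale were 5 and 1 in cKO and 6 and 0 in control cells. These 10 genes are part of the list above and were not set apart in advance. Cops7a rose by 0.73 ± 0.11 and 0.68 ± 0.11, and Cops6 by 0.67 ± 0.11 and 0.69 ± 0.11.

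Receptors with other names were called in both directions. Of 41 listed, 12 were called higher and 12 lower in cKO cells and 12 higher and 15 lower in control cells, where 53.8% of all genes in cKO and 50.6% in control cells were called in either direction. On the TPM scale the calls were 5 and 9 in cKO and 9 and 4 in control cells. Kbtbd11 was at 55.3, 49.6, 52.6 and 60.3 CPM in stimulated cKO libraries, against 309, 254 and 298 CPM in non-stimulated cKO libraries, and fell by 2.40 ± 0.13 in cKO and 2.32 ± 0.12 in control cells. Ddb2, which recognises ultraviolet damage in DNA, fell by 0.97 ± 0.11 and 1.02 ± 0.10, and Zer1, a CUL2 receptor, by 0.85 ± 0.09 and 0.89 ± 0.09. Tnfaip1 rose by 1.12 ± 0.11 and 1.03 ± 0.11.

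None of the 115 genes was called for cKO against control cells. In stimulated cells, 0 genes were called for cKO against control by edgeR, where 0.0064% of all genes tested were (Asb2 alone), and 2 had an unadjusted p under 0.05, against 283 of the 15619 genes tested. In non-stimulated cells 0 were called, as among all genes tested (0%), and 3 had an unadjusted p under 0.05, against 402 of all genes tested. Asb2 itself, at a log2 fold change of -0.94, was not called there, so a difference of that size can escape this test. For the difference between the stimulation responses of the genotypes 0 were called, again as among all genes (0%), and 5 had an unadjusted p under 0.05, against 605 of all genes tested. DESeq2 and limma on TPM values also called 0 of the 115 in each of these comparisons. The 95% interval of the log2 fold change lay within 2-fold for 108 of the 115 genes (93.9%) in stimulated cells, where it did for 84.9% of all genes tested. It did so for 105 (91.3%) in non-stimulated cells, where it did for 78.4% of all genes. In the difference of responses it did so for 96 (83.5%), where it did for 66.7% of all genes. The 115 genes had to pass the count minimum and other genes tested did not, and its part in these shares was not tested. The shares thus do not show that receptor genes differed less between genotypes than other genes.

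Of the genes with the smallest p for genotype, Klhl30, Kctd15 and Fbxl2 averaged under 10 counts per library in at least 1 group. Kctd15, whose values stand above, had a log2 fold change of -2.20 for cKO against control in non-stimulated cells (95% interval -3.32 to -1.08, unadjusted p = 0.000644, edgeR adjusted p = 1). Its response to stimulation was larger in cKO than in control cells by 2.24 (95% interval 0.96 to 3.53, unadjusted p = 0.00174, edgeR adjusted p = 0.997), so neither value held after adjustment. Klhl23 averaged 1.70 ± 0.106 CPM in non-stimulated cKO and 1.05 ± 0.0715 CPM in non-stimulated control cells, with no overlap and a log2 fold change of 0.70 (unadjusted p = 0.00642, edgeR adjusted p = 1). Fbxl2 averaged 0.959 ± 0.0559 CPM in non-stimulated cKO and 0.437 ± 0.206 CPM in non-stimulated control cells, a log2 fold change of 1.11 (unadjusted p = 0.0105, edgeR adjusted p = 1). In stimulated cells, Kctd21 was at 2.28, 1.72, 2.10 and 2.42 CPM in cKO libraries, against 1.60, 1.52, 1.60, 1.34 and 1.39 CPM in control libraries. It was higher in all 4 cKO libraries than in any control library, with a log2 fold change of 0.51 (unadjusted p = 0.0202, edgeR adjusted p = 1). Klhl30, with 0 counts in stimulated cKO and 8 in stimulated control cells, had an unadjusted p of 0.0187 and an edgeR adjusted p of 1. Kctd18 averaged 18.7 ± 2.01 CPM in stimulated and 22.8 ± 1.44 CPM in non-stimulated cKO cells, and 21.3 ± 1.60 CPM in stimulated and 19.7 ± 1.97 CPM in non-stimulated control cells. Its response differed by -0.40 between cKO and control cells (unadjusted p = 0.0173, edgeR adjusted p = 0.997). Fbxo33 and Fbxw17 differed by 0.17 and -0.19 in stimulated cells, and Fbxo6 and Fbxo9 by -0.24 and -0.27 in non-stimulated cells (log2, cKO against control), with unadjusted p over 0.05 for each.

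**Figure D5:**
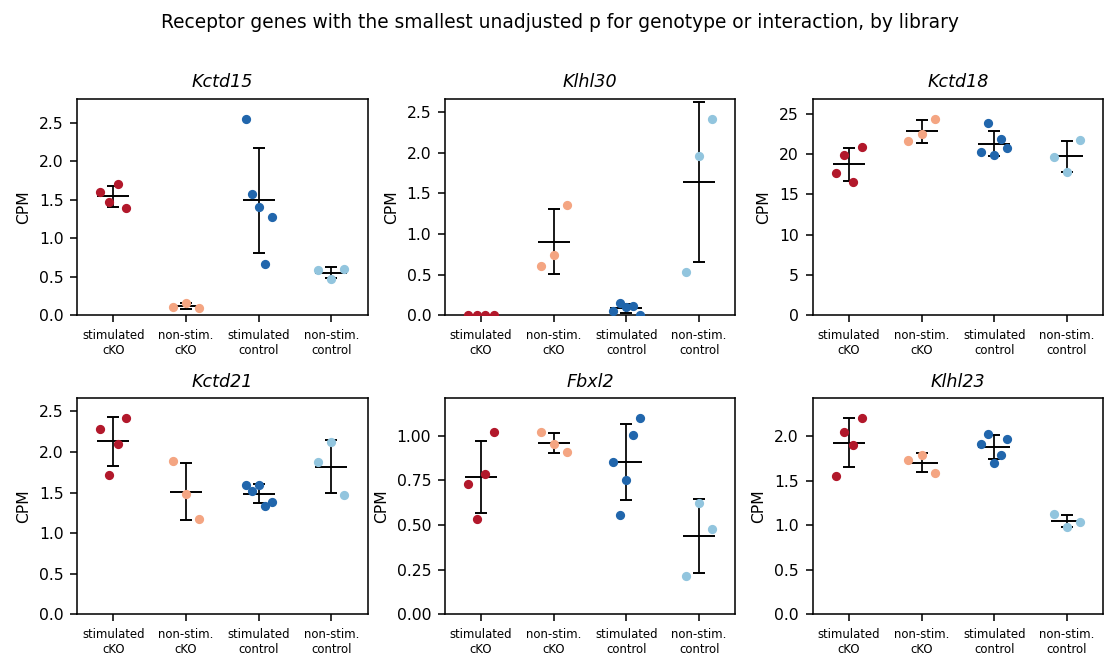
CPM (y axis) of 6 genes with the smallest unadjusted p for genotype or for the difference of responses, in each library (points) of the 4 groups, with the group mean and SD. None passed the adjusted test; Kctd15 lies at 0.0907 to 0.158 CPM in non-stimulated cKO cells and at 0.465 to 0.606 CPM in non-stimulated control cells.

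The receptors Fbxo38, Klhl22, Fbxw11, Klhl6 and Fbxo10 were not called for genotype either. Fbxo38 differed by -0.0013 ± 0.07 in stimulated and -0.02 ± 0.09 in non-stimulated cells (log2, cKO against control, SE). Klhl22 differed by 0.03 ± 0.12 and 0.08 ± 0.14, Fbxw11 by 0.03 ± 0.07 and -0.16 ± 0.08, and Klhl6 by -0.14 ± 0.14 and 0.13 ± 0.16. The 95% interval of each of these 4 lay within 2-fold, which does not show that the genotypes were alike. Fbxo10 differed by -0.35 in stimulated cells (95% interval -1.22 to 0.51) and by 0.14 in non-stimulated cells (95% interval -0.78 to 1.06), and neither interval lay within 2-fold.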

How the data were processed

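RNA of 15 libraries was measured by sequencing, from a stranded total RNA kit with ribosomal depletion per the labels' protocols. The authors deposited, for each of 56748 genes, an estimated count not scaled between libraries and a TPM value scaled by length within each library. The tools named per the submitters' processing notes are Salmon 1.10.1, STAR 2.7.9a and cutadapt 3.4, with genome build GRCm39; the role of each and the annotation release are not given in the sources used here. Reads shared by near-identical genes are divided by such estimation, which makes counts of close paralogs less certain.

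Estimated counts, 17.1 to 24.2 M per library, were rounded and tested in R 4.3.3 with edgeR 4.0.16 (filterByExpr, TMM scaling, robust quasi-likelihood fit with 1 mean per group over all 15 libraries). The filter left 15619 genes with at least 99.9% of the counts of each library. The 5 comparisons, each two-sided, set stimulated against non-stimulated cells in cKO and in control, cKO against control with and without stimulation, and the cKO response against the control response. Genes with an adjusted p under 0.05 (Benjamini-Hochberg over all genes tested) were called. No libraries were duplicates by a chi-square comparison of counts. Floors and counts cover counting error only.

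Other settings tried were relative log expression size factors, DESeq2 1.42.0, no low-count filter, a replicate block, a fit restricted to the groups compared, limma 3.58.1 on log2 of TPM plus 0.1 or 1 ("the TPM scale" is plus 0.1 for counts of calls, and both for a call described as lost), and each library left out, 22 settings per stimulation comparison. Whether replicate numbers pair the libraries was not settled.

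In each family, genes are named for the 4 smallest p in each stimulation comparison, for the 5 smallest p in each genotype comparison and in the difference of responses, and for known roles, with Asb2 and, from each of the lists of ligase parts and of other receptors, the 4 smallest p in each stimulation comparison; other names were chosen after their values were seen, as were promoter motifs. A gene that this rule takes is not reported here. The genes and lists were chosen with earlier results of these data known. Promoter sequence and gene order came from RefSeq (GRCm38.p6) and were joined by symbol. Proteins were not used here, so the identity of receptors was not compared.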

Additional observations from a re-analysis of the deposited data

Results flagged for a closer look

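In 130 groups of 4 or 5 libraries of named genes, 3 held a library far from the others by Dixon's test, where chance flags about 1 in 20 groups. Btbd1 was at 122 CPM in stimulated cKO replicate 3, against 83.0 to 84.5 CPM in the other stimulated cKO libraries, and this library also had the highest mitochondrial share. Fbxo27 was at 0.699 CPM in stimulated cKO replicate 4, against 0.393 to 0.438 CPM in the others, and without it the log2 fold change in cKO cells was -3.03 ± 0.42 (SE, edgeR adjusted p = 1.69e-05). Klhl7 was at 16.8 CPM in stimulated control replicate 2, against 15.1 to 15.4 CPM in the others, and without it the log2 fold change in control cells was 0.94 ± 0.14 (edgeR adjusted p = 3.78e-05).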

How the results depend on the processing

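No called value of a gene named by the rule changed sign under any alternative run. On log2 of TPM plus 0.1 or plus 1, 10 and 10 of the 115 genes were called higher by stimulation in cKO cells (25 in the count fit), 24 and 24 lower (32), 20 and 19 higher in control cells (27) and 11 and 11 lower (30). The cause was not tested. Of the 25 higher and 32 lower calls in cKO cells, 10 and 21 were kept in every setting, and of the 27 higher and 30 lower calls in control cells, 17 and 11. Without the low-count filter the calls were 22 higher and 24 lower in cKO and 21 higher and 26 lower in control cells. With each library left out, they ran from 22 to 27 higher and 25 to 32 lower in cKO cells, from 18 to 28 higher and 24 to 31 lower in control cells (18 higher without non-stimulated control replicate 1), and were 0 to 0 for genotype and the difference of responses. With the replicate number as a block they were 22 higher and 28 lower in cKO and 21 higher and 27 lower in control cells, and 0 otherwise. Deviations of same-numbered libraries correlated between -0.333 and 0.283, within and between genotypes. In cKO cells each correlated best with its own number (0.0964, 0.114 and 0.151), whereas the values in control cells were 0.155, -0.166 and -0.257. With so few libraries, pairing by number was neither shown nor excluded. The fit on only the groups compared was not run for the difference of responses. Genes at few counts, such as Klhl30 and Kctd15, are limited by depth.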
